A study of Mus musculus with 6 samples.

Results

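Neurons that carry RNA of Tshz2 were collected here as 2939 nuclei out of 77421 nuclei that passed the quality limits in 6 single-nucleus RNA libraries of mouse brain. A nucleus was a member when it had at least 1 UMI (a UMI, or unique molecular identifier, stands for 1 captured RNA molecule) of Slc17a7, at least 2 of Tshz2, at most 1 of Foxp2 and Tle4 together, at most 1 of Cux2 and Rorb together, none of Prox1 and at most 1 of Gad1 and Gad2 together. To pass, a nucleus needed 500 UMIs and 300 detected genes or more, with mitochondrial RNA making up no more than 5% of its UMIs. The rule therefore used the measured values of 9 genes, and the levels of those genes in the members are given only as a description.

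Slc17a7 encodes the vesicular transporter that loads glutamate into synaptic vesicles, so its RNA marks excitatory neurons of cortex and hippocampus. Tshz2 encodes a zinc-finger transcription factor of the teashirt family. In mouse cortex Tshz2 is known as a marker of the near-projecting neurons of deep layers, which send their axons locally and also express Vwc2l, Fezf2 and Trhr, and it is found in retrosplenial cortex and the subicular region too. The genes used to remove nuclei mark other neurons: Foxp2 and Tle4 deep corticothalamic cells, Cux2 and Rorb upper layers, Prox1 dentate granule cells, and Gad1 and Gad2 inhibitory neurons.

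All mice were of the B6 strain and 9 months old, and all carried a floxed APOE allele, that is, one flanked by sites that Cre recombinase can cut. The library FE3 came from APOE3 fl/fl mice and FE4 from APOE4 fl/fl mice, both without treatment. The remaining 4 libraries came from mice that also carried P301S, a mutant tau that forms aggregates in neurons, and a Cre written in the labels as Aldh1la1CreERT, a form of Cre that tamoxifen activates: TAFE3_oil and TAFE3_tam with APOE3, TAFE4_oil and TAFE4_tam with APOE4, given oil or tamoxifen. Each group had 1 library, and how many mice were in a library, and which promoter drove the tau transgene, are not given in the sources used here. FE3 and FE4 lacked P301S and Cre and received no oil, so these 3 differences cannot be told apart in a comparison with the oil libraries. The sample titles name hippocampus, the protocol names the left hemisphere, and the tissue label names brain.

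The 6 libraries held between 39050503 and 49083723 UMIs in all, and the members alone 10139162. The median member had 2845 UMIs in FE3 and up to 3316 in TAFE3_tam. Pairs of libraries shared 65 to 83 cell barcodes, at most 0.528% of the smaller library. The median share of mitochondrial UMIs was 0.476% and 0.530% in the members of FE4 and TAFE4_tam and 1.30% to 2.16% in those of the other 4 libraries, so FE4 and TAFE4_tam stood apart. The targeted gene, human APOE, was counted as a feature of its own. In the members it stood at 969.9 and 567 CPM in FE3 and FE4, 1363 and 2213 in TAFE3_oil and TAFE4_oil, and 823 and 889 in TAFE3_tam and TAFE4_tam, a log2 ratio of -0.73 (-0.83 to -0.63) for tamoxifen over oil with APOE3 and -1.32 (-1.399 to -1.23) with APOE4, with exact 95% counting intervals in parentheses. The summed astrocyte markers in members went from 247 to 278 CPM in the APOE3 pair and from 309.9 to 169 CPM in the APOE4 pair. CPM is the usual depth-scaled count of a gene, here over the summed members.

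The members made up a small part of the excitatory nuclei in all libraries, between 7.75% and 10.96%. Excitatory nuclei are here those with at least 1 UMI of Slc17a7 and at most 1 of Gad1 and Gad2. FE3 had 448 members, or 7.75% of its excitatory nuclei (exact Clopper-Pearson 95% interval 7.07% to 8.47%). FE4 had 572 (8.42%), TAFE3_oil 366 (7.93%), TAFE3_tam 471 (10.96%), TAFE4_oil 513 (9.55%) and TAFE4_tam 569 (10.2%). TAFE3_tam was the highest and FE3 the lowest. The log2 ratio of shares was 0.47 (0.27 to 0.67) for TAFE3_tam over TAFE3_oil, with the exact 95% interval in parentheses, and 0.09 (-0.09 to 0.26) for TAFE4_tam over TAFE4_oil. It was 0.03 (-0.17 to 0.24) for TAFE3_oil over FE3 and 0.18 (0.01 to 0.36) for TAFE4_oil over FE4. As a share of all nuclei that passed, members ran from 3.15% in TAFE3_oil to 4.35% in TAFE3_tam, with 4.09% in FE3. On that base the log2 ratio was -0.38 (-0.58 to -0.18) for TAFE3_oil over FE3 and 0.185 (0.01 to 0.36) for TAFE4_oil over FE4. It was 0.47 for TAFE3_tam over TAFE3_oil, 0.003 for TAFE4_tam over TAFE4_oil and -0.24 (-0.42 to -0.06) for FE4 over FE3. All intervals cover counting error only, since each group had 1 library, and no test of these differences was possible. Shares of excitatory nuclei were also computed with each nucleus thinned to 1000 UMIs before the rule was applied. The ratio of TAFE3_tam over TAFE3_oil was then 0.22, and that of FE4 over FE3 was 0.49 in place of 0.12. A share of nuclei cannot tell fewer neurons of this kind from less Tshz2 RNA per neuron.

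**Figure D1:**
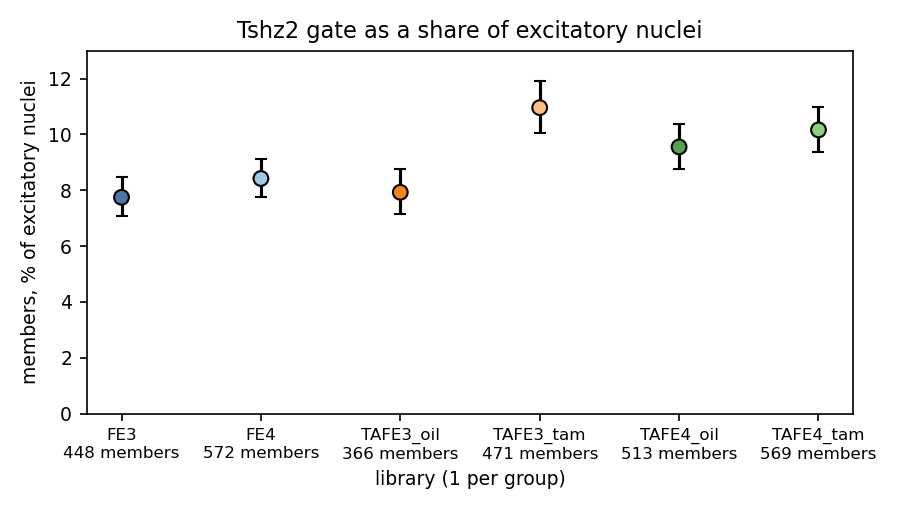
Share of members among excitatory nuclei (y axis, percent) in each of the 6 libraries (x axis, with the number of members); points are the libraries and bars are exact 95% binomial intervals, which cover counting error only. The shares lie between 7.75% in FE3 and 10.96% in TAFE3_tam.

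Tshz2 itself (chr2:169633013-170071816, plus strand, GRCm38) had a median of 4 or 5 UMIs per member and a highest count of 27. Exactly 2 UMIs, the lowest count the rule admits, were found in 725 of the 2939 members. Among nuclei that met every other limit, 17916 had no Tshz2 UMI, 1529 had 1, 725 had 2 and 2214 had 3 or more. Over these 4 groups in that order, Vwc2l stood at 3.56, 18.6, 42.5 and 52.2 CPM, and Fn1, which encodes the matrix protein fibronectin, at 16.3, 64.5, 104 and 146. The nuclei just outside the limit, with 1 UMI, thus held less of both than those just inside it. Zbtb20, a transcription factor of hippocampal pyramidal and granule neurons, went the other way, at 1183, 724, 371 and 249 CPM.

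The name Tshz2 excitatory neuron was checked against Vwc2l and Atp10b, which the rule did not use. Vwc2l encodes a secreted protein with von Willebrand C domains (chr1:70725715-70885397). It stood in the members at 51.1 and 51.2 CPM in FE3 and FE4, 59.1 and 43.5 in TAFE3_oil and TAFE4_oil, and 49.1 and 48.8 in TAFE3_tam and TAFE4_tam. The 6 values lay above the 5.83 to 23.9 CPM of upper-layer nuclei and the 0.445 to 6.300 CPM of deep-layer nuclei, with no overlap. At least 1 Vwc2l UMI was found in 12.3% of the members of TAFE4_oil and 16.4% of those of TAFE3_oil, the lowest and the highest share. In nuclei rich in oligodendrocyte markers, which should lack it, the share was 0.394% to 1.52%, at median depths of 1028 to 1518 UMIs. After thinning all nuclei to 1000 UMIs the members' shares were 4.297% to 5.64%. Atp10b, a lipid-transporting ATPase (chr11:43149877-43262285), was sparse, at 17.03 and 21.2 CPM in FE3 and FE4, 9.46 and 2.82 in TAFE3_oil and TAFE4_oil, and 19.2 and 8.83 in TAFE3_tam and TAFE4_tam. In TAFE4_oil 0.7797% of members had an Atp10b UMI against 1.54% of the oligodendrocyte-rich nuclei. Thinned to 1000 UMIs, the members' share was below that of the oligodendrocyte-rich nuclei in TAFE4_oil (0.391% against 1.17%) and TAFE4_tam (1.23% against 1.59%), and close to it in TAFE3_oil (1.39% against 1.302%) and TAFE3_tam (1.49% against 1.15%). In these 4 libraries the share over all members thus did not stand clearly above that of the oligodendrocyte-rich nuclei. It was 2.25% against 0.424% in FE3 and 2.11% against 0.557% in FE4. The Atp10b UMIs were not spread evenly over the members. Cluster 1 of the members, described below, held 82.1% of them. Its lowest library stood at 9.52 CPM, against at most 5.65 in the other members of any library.

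The other fixed markers of near-projecting neurons were uneven over the members as a whole. Fezf2, a transcription factor of deep-layer projection neurons, averaged 79.3 ± 8.89 CPM (SD, n = 6 libraries) and Lypd1, a membrane-anchored modulator of acetylcholine receptors, 36.8 ± 3.18 CPM. Trhr, the receptor for thyrotropin-releasing hormone, reached 2.82 to 8.67 CPM, Slc17a8, another vesicular glutamate transporter, 0.517 to 4.73 CPM, and Sla2, an adaptor protein, 0 to 2.82 CPM. The members thus do not carry the near-projecting markers throughout, and they are called members or the Tshz2 gate here.

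The members fell into 8 clusters when grouped by genes other than the rule's (Leiden clustering, resolution 0.3, chosen after resolutions of 0.3, 0.6 and 1.0 had been viewed, the latter giving 11 and 13 clusters). Cluster genes and sizes are descriptions, since the same nuclei were used to form the clusters. Clusters 1 and 2 depended most on the resolution. At most 64.7% of cluster 1 and 56.9% of cluster 2 lay in 1 cluster at resolution 0.6, and 63.6% and 53.4% at 1.0. At 0.6 it was 83.1% for cluster 3 and 96.6% or more for clusters 4 to 8. Cluster 1 held 788 members and was led by Atp10b at 50.6 CPM against 3.01 in the other members, Gpc6, a heparan sulfate proteoglycan, at 309 against 54.3, and Pou3f2, an upper-layer transcription factor, at 57.5 against 11.3. Of all Atp10b UMIs in members, 82.1% lay in this cluster. Cux2, of which the rule allows 1 UMI, stood highest in it at 106 CPM.

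Cluster 2 held 685 members and was led by genes of subicular and layer 5 neurons. Fn1 stood in it at 349 CPM (and at 396 in the small cluster 8), Nts, which encodes the peptide neurotensin, at 88.7, and Etv1, a transcription factor of layer 5, at 393. Ndst4, an enzyme of heparan sulfate synthesis, was at 274 CPM against 11.8 in the other members, and Bcl6, a transcriptional repressor, at 49.5 against 6.17. Cluster 3, with 438 members, was led by the phosphatase gene Cdc14a at 93.9 CPM against 4.47, by Unc13c, a vesicle priming factor, at 176 against 16.4, and by Wfs1, an endoplasmic reticulum protein known from CA1 pyramidal cells, at 151 against 14.2. Cluster 4, with 291 members and the highest median depth of 4878 UMIs, was led by Zbtb20 at 1054 CPM against 144.

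Cluster 5, with 258 members or 8.78% of all, was near-projecting-like. Of the 8 fixed markers other than Tshz2, which the rule used, 7 had their highest level there and Atp10b had no UMI. Vwc2l stood at 155, Fezf2 at 245, Lypd1 at 88.3, Trhr at 15.7, Slc17a8 at 17.1, Sla2 at 5.69 and Rapgef3, a cyclic AMP-activated exchange factor, at 169. Its leading genes were Sema5b, an axon guidance protein, at 162 CPM against 6.68 in the other members, Nxph3, a neurexin ligand, at 145 against 8.48, and Stard5, a sterol-binding protein, at 205 against 15.4. Tle4, of which the rule allows 1 UMI together with Foxp2, was also highest in this cluster, at 231 CPM. Vwc2l was not confined to it, standing at 96.98 CPM in cluster 3 and 76.9 in cluster 1. Tshz2 itself stood at 2665 CPM in cluster 5.

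Cluster 6, with 212 members, was led by the collagen gene Col5a2 at 294 CPM against 10.3 and held the upper-layer gene Otof at 38.4. Cluster 7, with 210 members, was led by Dkk2, a Wnt modulator, at 54.7 CPM against 3.32 and held Nr4a2, a nuclear receptor of claustrum and layer 6b, at 307. Cluster 8, with 57 members, was of vascular make-up: the endothelial junction gene Cldn5 stood at 2797 CPM against at most 22.6 in the other clusters, and the pericyte gene Rgs5 at 1460.2. These 57 nuclei passed the rule although their leading genes belong to blood vessel cells.

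**Figure D2:**
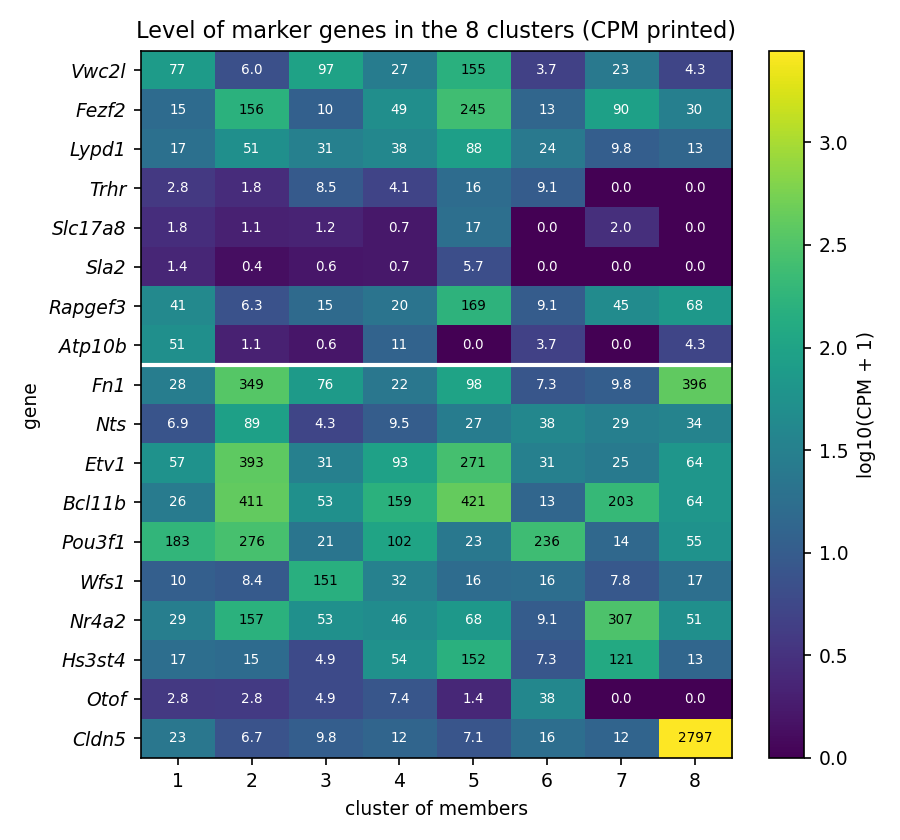
Level of marker genes (rows) in the 8 clusters of members (columns), with the CPM printed in each cell and colour on a log10(CPM + 1) scale; genes above the white line are near-projecting markers. Those genes other than Atp10b are highest in cluster 5, and Cldn5 reaches 2797 CPM in cluster 8.

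Each of the 8 clusters was found in every library, in unequal parts. Cluster 1 made up 18.5% and 23.95% of the members of FE3 and FE4, 25.1% and 34.1% of those of TAFE3_oil and TAFE4_oil, and 24.4% and 32.7% of those of TAFE3_tam and TAFE4_tam. Cluster 2 made up 31.2% and 28.7% of the members of FE3 and FE4, 19.7% and 18.9% of those of TAFE3_oil and TAFE4_oil, and 21.4% and 19.5% of those of TAFE3_tam and TAFE4_tam, and was larger in FE3 and FE4 than in each tau library. Cluster 7 made up 3.12% and 3.67% of the members of FE3 and FE4, 9.84% and 10.3% of those of TAFE3_oil and TAFE4_oil, and 8.49% and 8.08% of those of TAFE3_tam and TAFE4_tam, and cluster 6 likewise had its lowest shares, 4.91% and 5.07%, in FE3 and FE4. The near-projecting-like cluster 5 varied least in relative terms among clusters 5, 6 and 7, from 6.16% to 9.94%. The clusters are formed from genes that may themselves differ between libraries, so no change in a cell population is read from these shares. Each comparison of conditions was also computed with the same mix of clusters in every library, an alternative added after the shares had been seen.

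**Figure D3:**
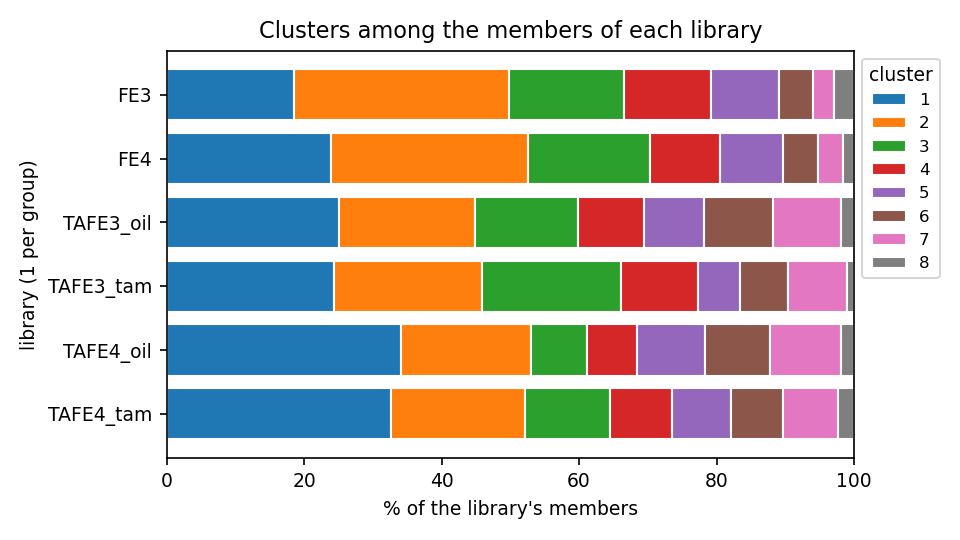
Part of each library's members (x axis, percent) that fell in clusters 1 to 8 (colours) for the 6 libraries (y axis). Cluster 2 takes 31.2% of members in FE3, 28.7% in FE4 and less in the 4 tau libraries.

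The members were then compared with other excitatory nuclei of the same libraries: 2454 upper-layer nuclei (at least 2 UMIs of Cux2 and Rorb, at most 1 of Tshz2) and 2967 deep-layer nuclei (at least 2 UMIs of Foxp2 and Tle4, at most 1 of Tshz2). Fn1, Nts, Syt2, Pbx3, Vwc2l, Pou3f1 and Slc17a6 were higher in members than in both, and Pvrl3 and Kcnv1 lower. UMIs were summed per library and gate and tested with edgeR's quasi-likelihood test with library as a block, 6 sums against 6. Genes were called at a Benjamini-Hochberg adjusted p under 0.05 and a log2 fold change of at least 1. Against upper-layer nuclei 103 of 11016 genes were called higher (0.935%) and 227 lower (2.06%), 3% in all. Against deep-layer nuclei 179 of 11136 were called higher (1.61%) and 144 lower (1.29%), 2.9% in all. Against all other excitatory nuclei without Prox1, a gate added after seeing the data, 165 of 13697 were called higher (1.2%) and 215 lower (1.57%), 2.77% in all. In both comparisons at once 64 of 10855 genes were called higher (0.59%) and 24 lower (0.221%). The 9 genes of the rule were given no test.

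Transcription factors were among the genes higher than in both gates. Pou3f1, a POU factor of layer 5 projection neurons, stood in members at 179 and 132 CPM in FE3 and FE4, 147 and 160.3 in TAFE3_oil and TAFE4_oil, and 143 and 153 in TAFE3_tam and TAFE4_tam. All 6 values exceeded the 26.3 to 51.1 CPM of upper-layer and the 24.4 to 35.9 CPM of deep-layer nuclei. Its log2 fold change was 1.905 ± 0.13 (SE) over upper-layer nuclei (edgeR adjusted p = 3.38e-06) and 2.34 ± 0.09 over deep-layer nuclei (edgeR adjusted p = 6.79e-12). Pbx3, a homeodomain factor, stood at 103 and 101 CPM in FE3 and FE4, 67.8 and 70.6 in TAFE3_oil and TAFE4_oil, and 88.7 and 78.5 in TAFE3_tam and TAFE4_tam, again without overlap with the 9.03 to 28.3 and 12.9 to 24.9 CPM of the other gates. Its log2 fold changes were 2.17 ± 0.18 and 2.08 ± 0.13. Tshz3, a relative of Tshz2, averaged 88.6 CPM against 33.7 in upper-layer and 31.2 in deep-layer nuclei and was called higher in both. Of 39 cortical transcription factors tested, 6 were called higher and 5 lower against upper-layer nuclei, and 5 higher and 3 lower against deep-layer nuclei. Of all genes tested, 0.935% were called higher and 2.06% lower against upper-layer nuclei, and 1.61% and 1.29% against deep-layer nuclei.

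Genes of neuropeptides and transmitter release followed. Nts stood at 44.3 and 36.7 CPM in FE3 and FE4, 30.7 and 31.05 in TAFE3_oil and TAFE4_oil, and 36.1 and 30.1 in TAFE3_tam and TAFE4_tam, with 1.46 to 11.6 CPM in upper-layer and 2.23 to 12.5 in deep-layer nuclei. Its log2 fold changes were 2.71 ± 0.25 (edgeR adjusted p = 4.09e-05) and 2.45 ± 0.21 (edgeR adjusted p = 1.38e-07). Slc17a6, the vesicular glutamate transporter typical of thalamus and also present in retrosplenial and subicular neurons, stood at 38.1 and 26.4 CPM in FE3 and FE4, 30.7 and 25.4 in TAFE3_oil and TAFE4_oil, and 29.9 and 36.4 in TAFE3_tam and TAFE4_tam. It was higher by 1.597 ± 0.21 and 2.55 ± 0.23 on the log2 scale. Syt2, a fast calcium sensor of vesicle release, averaged 30.8 ± 4.97 CPM (SD, n = 6) against 6.38 and 4.53. Unc13c was called higher in both comparisons, the only one of 25 vesicle and release genes in either. Of all genes tested, 0.935% and 1.61% were called higher.

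Matrix, adhesion and signalling genes completed the higher group. Fn1 (chr1:71585520-71653200, minus strand) stood at 221 and 165 CPM in FE3 and FE4, 85.1 and 79.03 in TAFE3_oil and TAFE4_oil, and 129 and 137 in TAFE3_tam and TAFE4_tam, above 10.7 to 45.1 and 6.68 to 54.02 CPM. Its log2 fold changes were 2.54 ± 0.16 (edgeR adjusted p = 1.94e-06) and 2.56 ± 0.23 (edgeR adjusted p = 2.96e-07). Cluster 2 held 71.9% of the members' Fn1 UMIs. Ndst4 was higher by 2.39 ± 0.15 and 1.69 ± 0.12, Adamts2, a procollagen protease, by 1.84 ± 0.21 and 1.94 ± 0.203, and Cdh22, a cadherin, by 1.46 ± 0.196 and 1.72 ± 0.16. Coro6, an actin-binding coronin, was the most even of the named genes, at 235 to 276 CPM in members against 55.4 to 118 and 21.8 to 51.4. Adcy10, a soluble adenylyl cyclase, was higher by 1.85 ± 0.26 and 2.100 ± 0.23. Vwc2l itself was higher by 2.03 ± 0.23 (edgeR adjusted p = 1.41e-04) and 3.57 ± 0.21 (edgeR adjusted p = 1.03e-09).

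Ly6a, Cxcl12 and Igfbp7, genes of vessel cells, met the same rule, with log2 fold changes of 1.63 ± 0.29, 1.53 ± 0.18 and 1.33 ± 0.24 over upper-layer nuclei. They are high in cluster 8, and once that cluster and nuclei with 3 or more UMIs of astrocyte genes were left out, an alternative chosen after seeing the data, the log2 fold change of Cxcl12 became -0.100 ± 0.32 over upper-layer and -0.28 ± 0.25 over deep-layer nuclei, and that of Igfbp7 0.06 ± 0.19 and 0.67 ± 0.19. Of 6 and 7 vascular markers tested, 4 were called higher in each comparison (Flt1, Cldn5, Pecam1 and Rgs5), beside 0.935% and 1.61% of all genes tested. Under the same alternative none of these 4 was called: Cldn5 stood at -0.65 ± 0.25 and -0.08 ± 0.24 and Rgs5 at -0.05 ± 0.36 and 0.36 ± 0.31, while Flt1, Pecam1 and also Ly6a had too few counts left to be tested. The summed vascular list in members ranged from 139 to 517 CPM.

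Genes lower in members were named by the same rule. Pvrl3, a nectin adhesion protein, stood in members at 25.9 and 11.4 CPM in FE3 and FE4, 17.3 and 20.9 in TAFE3_oil and TAFE4_oil, and 13.6 and 14.03 in TAFE3_tam and TAFE4_tam, below 35.4 to 67.5 CPM in upper-layer and 29.5 to 87.7 in deep-layer nuclei. Its log2 fold changes were -1.68 ± 0.15 (edgeR adjusted p = 3.63e-05) and -1.99 ± 0.21 (edgeR adjusted p = 1.82e-06). The potassium channel subunits Kcnv1 (-1.47 ± 0.18 and -1.21 ± 0.15) and Kcnt2 (-1.05 ± 0.13 and -1.01 ± 0.15) were lower too. Clec18a, a lectin, Stxbp6, a syntaxin-binding protein, Trps1, a zinc-finger repressor, and Cpne2, a copine, were also lower. Cpne2 overlapped, at 10.7 to 33.1 CPM in members against 15.6 to 108 in upper-layer nuclei.

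**Figure D4:**
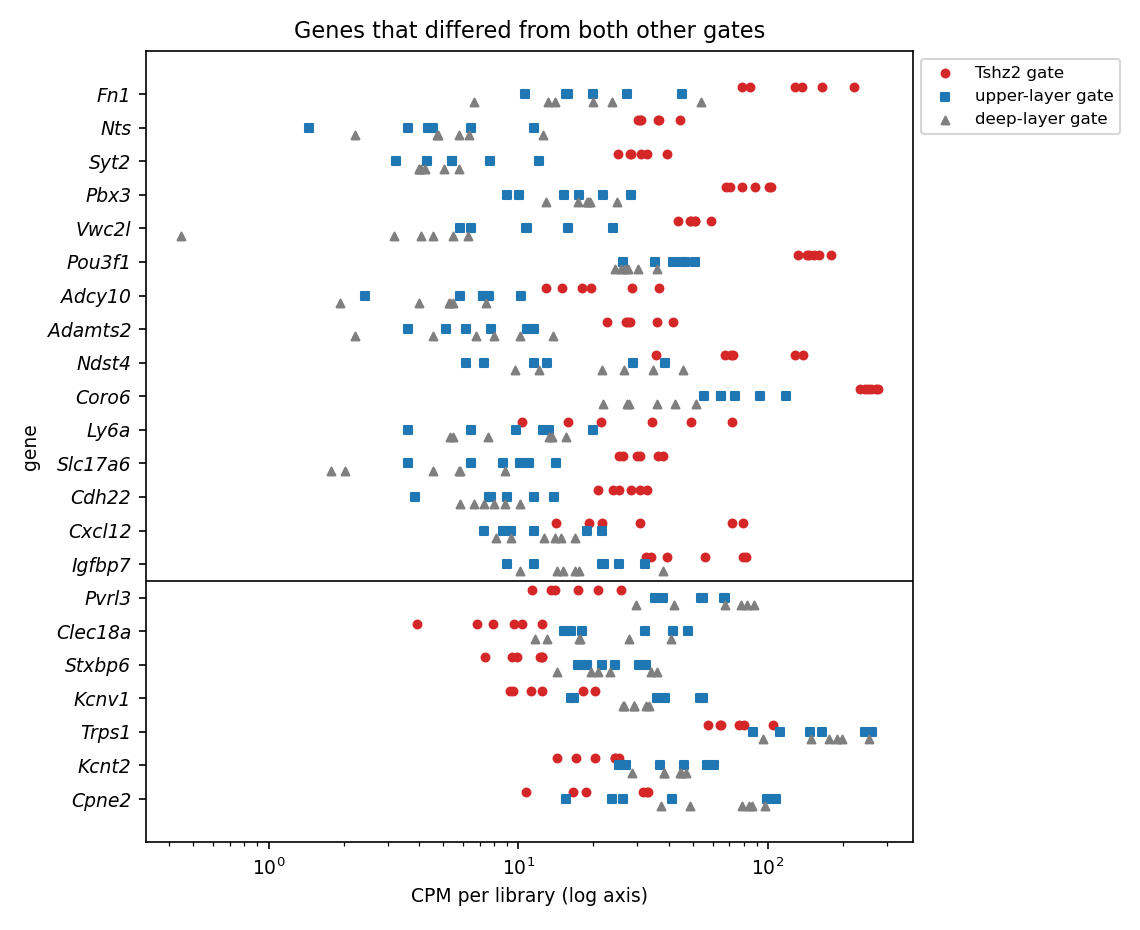
CPM per library (x axis, log scale) of genes named in the comparison of gates (y axis), with 6 points for each of the Tshz2 gate, the upper-layer gate and the deep-layer gate; the line separates genes higher in members from genes lower. Pou3f1, Pbx3, Nts and Slc17a6 show no overlap between members and the other gates, while Cpne2, Ly6a and Ndst4 do.

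Layer markers sorted by list. Of 7 tested genes of layer 5 neurons, 4 were called higher against upper-layer nuclei (Etv1, Pou3f1, Bcl6 and Bcl11b) and 3 against deep-layer nuclei (Etv1, Pou3f1 and Bcl6). The median log2 fold changes were 1.03 and 0.70 beside 0.00 over all genes tested. Of all genes tested, 0.935% and 1.61% were called higher in these comparisons. Against all other excitatory nuclei without Prox1, 0 of 8 tested layer 5 genes were called, with a median of 0.58. Nuclei that met every other limit but had no Tshz2 UMI held Etv1 at 103 and Pou3f1 at 77.8 CPM. Those with 3 or more Tshz2 UMIs held 174 and 154 CPM. Bcl11b, a factor of subcerebral neurons, averaged 195 CPM in members, 71.6 in upper-layer and 168 in deep-layer nuclei. All 4 layer 6 genes tested against deep-layer nuclei were called lower (Sulf1, Hs3st4, Moxd1 and Ctgf), genes known to be expressed together with Foxp2 and Tle4, which define that gate. Of 4 near-projecting genes tested, Vwc2l and Fezf2 were called higher against upper-layer nuclei, and Vwc2l and Rapgef3 against deep-layer nuclei. Among receptors, Grm8 and Htr2c were called higher against upper-layer nuclei, Grm2 and Grm4 against deep-layer nuclei, and none of 12 and 11 GABA-A receptor genes in either comparison.

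Potassium channel genes and adhesion and guidance genes are given beside the shares of all genes tested. Against upper-layer nuclei 0.935% of all genes were called higher and 2.06% lower, and against deep-layer nuclei 1.61% and 1.29%. The 1 higher and 2 lower of 67 adhesion and guidance genes against upper-layer nuclei were near these shares. Of 34 and 35 potassium channel genes tested, 2 were called lower against upper-layer nuclei (Kcnv1 and Kcnt2), and 2 higher (Kcnh5 and Kcnip1) and 3 lower (Kcnv1, Kcnt2 and Kcnip2) against deep-layer nuclei. Kcnh5 averaged 9.98 CPM in members against 3.36 in deep-layer nuclei, a log2 fold change of 1.51 ± 0.25 (edgeR adjusted p = 2.20e-04). Among 67 and 65 adhesion and guidance genes tested, Nrp1, a semaphorin receptor, was called higher against upper-layer nuclei, and the repulsive cues Sema3a and Efna5 lower. Against deep-layer nuclei, the synaptic organizer Ntng1 (1.48 ± 0.14), the contactins Cntn5 (1.42 ± 0.15) and Cntn6 (1.01 ± 0.21), and the cadherins Cdh7 and Cdh20 were among 8 called higher, while Robo1 (-1.21 ± 0.27) and its ligand Slit2 (-1.28 ± 0.14) were among 6 called lower.

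The upper-layer gate also held astrocyte RNA, and astrocytes are known to express Rorb. Slc1a3, the astrocyte glutamate transporter, averaged 379 CPM there (from 97.4 to 895) against 39.6 in members. Called lower in members were 6 of 6 astrocyte genes tested, beside 2.06% of all genes tested. Without the vascular cluster and the nuclei with 3 or more astrocyte UMIs, 91 genes were called higher and 89 lower against upper-layer nuclei, in place of 103 and 227. Against deep-layer nuclei the same step gave 165 and 148 in place of 179 and 144. A further alternative, the doublet trim, left out nuclei with 3 or more glial or vascular UMIs or a depth above the 99th percentile of their library. It kept 48 of 366 members in TAFE3_oil and 339 of 572 in FE4, the range over libraries. In the upper-layer gate of FE4 it kept 24 of 214 nuclei. Which of the removed nuclei were doublets was not tested. After this trim 4856 and 5717 genes were tested, and 54 and 125 were called in all.

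The oil-treated tau libraries were compared with the libraries without tau, separately for each APOE background. Microglial genes, Npy and a locus named Mir6236 were higher, and Fn1, C1ql2, Sema5b and Pkp2 lower, in both pairs. With 1 library a group there is no test. The values are log2 ratios of CPM in members with an exact 95% counting interval in parentheses, for genes whose members' UMIs in the pair summed to 50 or more and whose higher level reached 20 CPM. Past 2-fold were 58 genes higher (0.776%) and 93 lower (1.24%) of 7478 in TAFE3_oil over FE3 (2.02% in all), and 689 higher (8.82%) and 50 lower (0.64%) of 7814 in TAFE4_oil over FE4 (9.46%). Among members with at most 1% mitochondrial UMIs, 106 in TAFE4_oil and 438 in FE4, the APOE4 pair gave 291 higher and 137 lower. That was 7.29% of 5871 genes in all. The APOE3 pair, with 127 such members in TAFE3_oil and 61 in FE3, gave 70 and 39. In both pairs at once, of 7258 genes, 32 were higher (0.441%) and 7 lower (0.0964%). The median of all genes was shifted by 0.20 in the APOE4 pair and by -0.03 in the APOE3 pair, and changes are to be read relative to that. In FE4 the members' mitochondrial share was low, and 28 of 48 nuclear genes of oxidative phosphorylation were past 2-fold higher in TAFE4_oil over FE4 against 0 of 48 in TAFE3_oil over FE3. Their median was 1.06 and 0.08, that of 12 mitochondrially encoded genes 1.43 and of 13 in the APOE3 pair -0.55, and the part of RNA quality in these values was not tested.

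Of the genes named by the rule, the one with the highest ratio in both pairs was the locus Mir6236 (chr9:110281287-110281409, GRCm38), at 5.45 and 1.55 CPM in FE3 and FE4, 70.9 and 56.4 in TAFE3_oil and TAFE4_oil, and 61.00 and 48.8 in TAFE3_tam and TAFE4_tam. The 4 tau libraries were all high and the 2 libraries without tau both low, with 8 UMIs in FE3 and 3 in FE4. The log2 ratio was 3.702 (2.66 to 4.96) in the APOE3 pair and 5.19 (3.598 to 7.49) in the APOE4 pair. The annotated mature RNA of this locus (chr9:110281353-110281371, plus strand, sequence from RefSeq, GRCm38.p6) is shown because it identifies what the locus is annotated as; capitals mark the seed, bases 2 to 8.
mmu-miR-6236: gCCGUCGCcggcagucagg
Single-nucleus libraries of this kind capture longer, polyadenylated RNA, so the UMIs count RNA assigned to the locus and not this mature form. The same locus was higher in deep-layer nuclei, by 2.12 and 5.36.

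Ndfip1, an adaptor of ubiquitin ligases, stood at 14.3 and 6.72 CPM in FE3 and FE4, 81.9 and 70.00 in TAFE3_oil and TAFE4_oil, and 96.02 and 29.6 in TAFE3_tam and TAFE4_tam. Its log2 ratios were 2.52 (1.83 to 3.27) and 3.38 (2.55 to 4.33). Npy, the peptide neuropeptide Y, stood at 11.6 and 8.27 CPM in FE3 and FE4, 48.1 and 43.5 in TAFE3_oil and TAFE4_oil, and 27.1 and 27.02 in TAFE3_tam and TAFE4_tam, with log2 ratios of 2.05 (1.26 to 2.92) and 2.39 (1.605 to 3.27). Both were higher in each oil library than in either library without tau. Npy is a product of interneurons, and the summed list of 10 interneuron markers in the members moved with it, at 138 and 109.5 CPM in FE3 and FE4, 255 and 338 in TAFE3_oil and TAFE4_oil, and 218 and 257 in TAFE3_tam and TAFE4_tam. The part of free interneuron RNA in the Npy value was not tested.

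The remaining named genes on the higher side are genes of microglia, reactive oligodendrocytes or other glia: C1qc, a complement component, Ctsz, a lysosomal protease, C4b, complement C4, Lyz2, lysozyme, Cd9, a tetraspanin, Spp1, osteopontin, and S100a6, a calcium-binding protein. Their log2 ratios ran from 1.35 (S100a6) to 1.62 (C1qc) in the APOE3 pair and from 2.03 (Cd9) to 4.39 (C4b) in the APOE4 pair. The microglial marker list moved with them: all 5 of its 8 genes counted in the APOE3 pair and all 6 in the APOE4 pair were past 2-fold higher, with medians of 1.91 and 2.59. Summed over 8 genes it stood in members at 180.5 and 134 CPM in FE3 and FE4, 539.7 and 579.7 in TAFE3_oil and TAFE4_oil, and 441 and 563 in TAFE3_tam and TAFE4_tam, and no gene of the list was at 0. In deep-layer nuclei all 10 genes named higher had the same sign in both pairs. In upper-layer nuclei 8 of 10 did in the APOE3 pair and 9 of 10 in the APOE4 pair. C4b was lower there in both pairs (-0.39 and -0.21) and S100a6 in the APOE3 pair (-0.24). All of these intervals included 0. The summed astrocyte list in upper-layer nuclei stood at 1790 and 1811 CPM in FE3 and FE4 and 481 and 448 in TAFE3_oil and TAFE4_oil. The part of this difference in the upper-layer ratios was not tested. C1qc, Lyz2 and Ctsz are known as microglial products, and the part of microglial RNA in the members' values was not tested.

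Fn1 was lower in the tau libraries given oil than in every other library, at 221 and 165 CPM in FE3 and FE4, 85.1 and 79.03 in TAFE3_oil and TAFE4_oil, and 129 and 137 in TAFE3_tam and TAFE4_tam. The log2 ratio was -1.37 (-1.703 to -1.06) in the APOE3 pair and -1.06 (-1.36 to -0.77) in the APOE4 pair. Within cluster 2, where most of it lies, it stood at 491 and 407 CPM in FE3 and FE4, 208 and 155 in TAFE3_oil and TAFE4_oil, and 367 and 383 in TAFE3_tam and TAFE4_tam. With the same mix of clusters in every library the ratios were -0.94 and -0.83. Among members with a Vwc2l UMI, few of which belong to cluster 2, they were 0.36 and 0.01. In deep-layer nuclei they were -0.75 and 1.57, so the APOE4 pair went the other way there. In upper-layer nuclei they were -0.896 and -1.53, lower in both pairs as in members, but the interval of the APOE3 pair included 0. The astrocyte RNA of the upper-layer gate also differed within these pairs, as given above, and its part in these ratios was not tested. Further genes that lead cluster 2 within it were Nts, at 102 and 89.3 CPM in FE3 and FE4, 77.5 and 77.4 in TAFE3_oil and TAFE4_oil, and 99.3 and 83.04 in TAFE3_tam and TAFE4_tam, and Etv1, at 452 and 442 CPM in FE3 and FE4, 391 and 374 in TAFE3_oil and TAFE4_oil, and 339 and 332 in TAFE3_tam and TAFE4_tam, which differed less.

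Sema5b (chr16:35541145-35664732, plus strand), the leading gene of the near-projecting-like cluster, stood in all members at 30.7 and 23.8 CPM in FE3 and FE4, 11.03 and 6.77 in TAFE3_oil and TAFE4_oil, and 12.4 and 19.7 in TAFE3_tam and TAFE4_tam. Its log2 ratios were -1.47 (-2.45 to -0.58) and -1.81 (-2.86 to -0.87). Within cluster 5 it stood at 276 and 165 CPM in FE3 and FE4, 107 and 69.6 in TAFE3_oil and TAFE4_oil, and 158 and 199.8 in TAFE3_tam and TAFE4_tam, on 114 UMIs in all. Other leading genes of cluster 5 did not share this pattern, with Nxph3 at 133 and 122 CPM in FE3 and FE4, 117 and 178 in TAFE3_oil and TAFE4_oil, and 158 and 157 in TAFE3_tam and TAFE4_tam and Stard5 at 171 and 158 CPM in FE3 and FE4, 288 and 209 in TAFE3_oil and TAFE4_oil, and 253 and 186 in TAFE3_tam and TAFE4_tam. In deep-layer nuclei Sema5b had log2 ratios of 0.84 and 1.06, the opposite sign. In upper-layer nuclei they were -1.003 and 0.099, with intervals that both included 0. Whether the ratio in members differs from that in the other gates was not tested.

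C1ql2, a synaptic complement-like protein of hippocampal mossy fibres, stood at 70.8 and 60.5 CPM in FE3 and FE4, 23.6 and 27.7 in TAFE3_oil and TAFE4_oil, and 27.7 and 37.9 in TAFE3_tam and TAFE4_tam, with log2 ratios of -1.58 (-2.22 to -0.99) and -1.13 (-1.64 to -0.64). FE3 and FE4 lay above all 4 tau libraries. Pkp2, a desmosomal protein, stood at 34.1 and 35.1 CPM in FE3 and FE4, 15.8 and 9.596 in TAFE3_oil and TAFE4_oil, and 17.5 and 19.7 in TAFE3_tam and TAFE4_tam, with -1.11 (-1.94 to -0.34) and -1.87 (-2.73 to -1.09). Both had the same sign in upper-layer and deep-layer nuclei of both pairs. Tead1, a transcription factor of the Hippo pathway, had log2 ratios of -0.97 and -1.01, Mfap2, a microfibril protein, -1.58 and -1.22, and Golm1, a Golgi membrane protein, -1.14 and -1.21. Cpne2, Ryr1, a calcium release channel, and Col6a2, a collagen chain, were the others, between -1.62 and -0.98. Of the 10 genes named lower, 8 and 7 had the same sign in deep-layer nuclei in the APOE3 and APOE4 pairs. In upper-layer nuclei 9 and 8 did. Col6a2 had 0.45 (-0.10 to 1.02) and 0.92 (0.40 to 1.47) in deep-layer nuclei, the opposite sign. C1ql2 had -2.85 and -2.31 in deep-layer and -2.23 and -2.29 in upper-layer nuclei. The part of free RNA of other cells in the C1ql2 values was not tested.

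**Figure D5:**
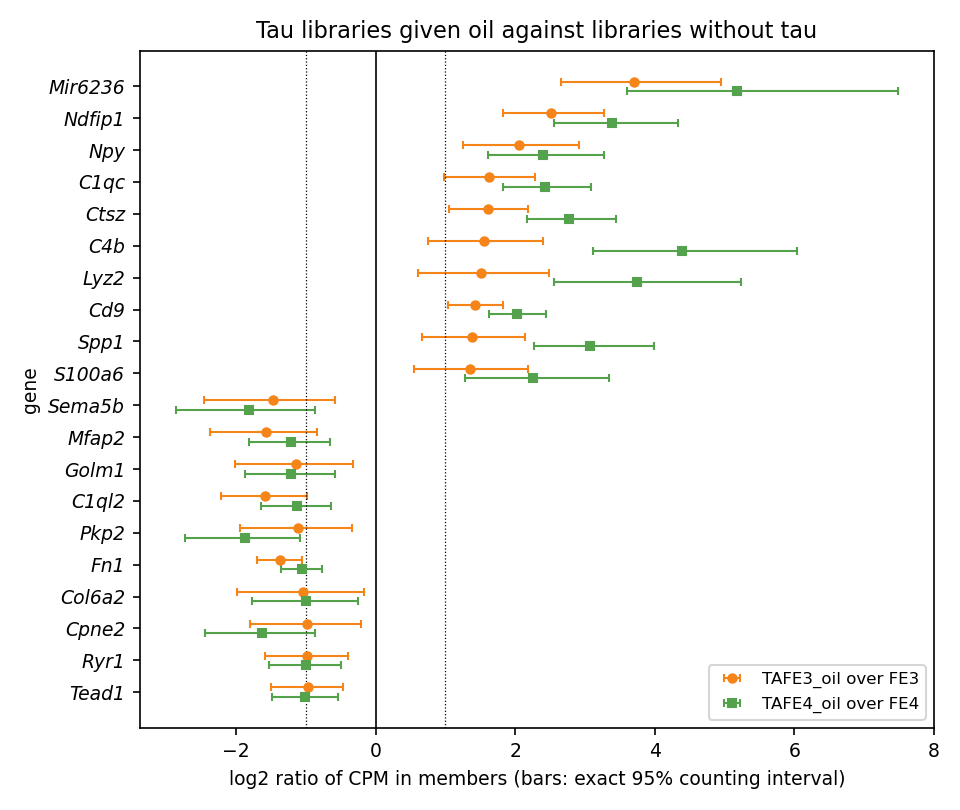
Log2 ratio of CPM in members (x axis) for the 10 genes named higher and the 10 named lower (y axis), for TAFE3_oil over FE3 (circles) and TAFE4_oil over FE4 (squares); bars are exact 95% counting intervals, with 1 library a group, and dotted lines mark 2-fold. Both pairs have the same sign for each gene because the rule for naming them required it.

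Mapt, the tau gene, stood in members at 236 and 224 CPM in FE3 and FE4, 396 and 382 in TAFE3_oil and TAFE4_oil, and 319 and 348 in TAFE3_tam and TAFE4_tam, a log2 ratio of 0.75 (0.55 to 0.95) and 0.77 (0.59 to 0.95), and Prnp, the prion protein gene, at 163 and 125 CPM in FE3 and FE4, 322 and 331 in TAFE3_oil and TAFE4_oil, and 255 and 299 in TAFE3_tam and TAFE4_tam, a log2 ratio of 0.98 (0.75 to 1.22) and 1.41 (1.19 to 1.63). Both were higher in each of the 4 tau libraries than in FE3 and FE4. Whether reads of the transgene were counted at either gene was not tested. Ifit1, an antiviral RNA-binding protein, stood at 4.77 and 4.13 CPM in FE3 and FE4, 18.1 and 21.5 in TAFE3_oil and TAFE4_oil, and 29.9 and 48.3 in TAFE3_tam and TAFE4_tam, and in cluster 3, which held 39.6% of its UMIs, at 4.31 and 2.76 CPM in FE3 and FE4, 61.9 and 129 in TAFE3_oil and TAFE4_oil, and 71.2 and 87.3 in TAFE3_tam and TAFE4_tam, on 88 UMIs in all. Of 24 interferon and antigen-presentation genes, 0 of 9 counted in the APOE3 pair and 5 of 10 in the APOE4 pair were past 2-fold higher, with medians of 0.36 and 0.99. Of the immediate early genes, which follow neuronal activity, 11 and 13 were counted, with medians of 0.41 and 0.53 and 1 past 2-fold higher in each pair. Of all genes 0.776% and 8.82% were past 2-fold higher in these pairs, with medians of -0.03 and 0.20. The immediate early count in the APOE4 pair was near that share.

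Of 12 listed genes of hippocampal and subicular neurons, 7 were counted in the APOE3 pair and 6 in the APOE4 pair. Below 0 were 6 of the 7 and all 6, and past 2-fold lower 2 and 3, where 1.24% and 0.64% of all genes were. The list medians were -0.65 and -0.96. C1ql2 and Fn1, named above because they were lower, belong to this list, as does Wfs1, with log2 ratios of -0.602 (-1.19 to -0.03) and -0.85 (-1.44 to -0.29). Cluster 2, which holds much of this RNA, was also smaller in the tau libraries, and with the same mix of clusters the medians were -0.82 and -0.54. Fkbp5, a chaperone that binds the glucocorticoid receptor and tau, stood at 32.7 and 45.99 CPM in FE3 and FE4, 17.3 and 15.2 in TAFE3_oil and TAFE4_oil, and 22.03 and 23.4 in TAFE3_tam and TAFE4_tam, with log2 ratios of -0.92 (-1.71 to -0.16) and -1.59 (-2.27 to -0.96). Of 22 and 23 counted cytoskeletal and tau-related genes, 0 were past 2-fold in the APOE3 pair, and 5 higher and 1 lower in the APOE4 pair, where 8.82% of all genes were higher. The medians were 0.18 and 0.47, and the list includes Nefl (0.37 and 1.47) and Tuba1a (0.35 and 1.33).

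Of the 14 counted AMPA, NMDA and kainate receptor genes none was past 2-fold in either pair, with medians of -0.22 and -0.16. The same held for the 10 counted GABA-A receptor genes, with medians of 0.00 and -0.08. Of 58 and 60 counted adhesion and guidance genes, 0 in the APOE3 pair and 5 in the APOE4 pair (2 higher and 3 lower) were past 2-fold, where 9.46% of all genes were in the latter. The 4 counted near-projecting genes had medians of 0.03 and 0.06. A list with no gene past 2-fold does not show that its genes were equal.

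Tamoxifen libraries were compared with the oil libraries of the same genotype, the contrast in which the Cre is activated. The oil libraries are the same ones used above, so these ratios and those above share libraries. Past 2-fold were 30 genes higher (0.398%) and 23 lower (0.305%) of 7547 in TAFE3_tam over TAFE3_oil (0.702% in all), and 17 higher (0.215%) and 103 lower (1.3%) of 7915 in TAFE4_tam over TAFE4_oil (1.52%). Among members with at most 1% mitochondrial UMIs, 421 in TAFE4_tam and 106 in TAFE4_oil, the latter pair gave 143 higher and 46 lower. That was 3.06% of 6170 genes in all. The APOE3 pair, with 100 such members in TAFE3_tam and 127 in TAFE3_oil, gave 15 and 24. In both pairs at once none of 7340 genes was higher and 3 were lower (0.0409%). Phgdh, the first enzyme of serine synthesis and an astrocyte gene, stood at 20.4 and 9.82 CPM in FE3 and FE4, 36.2 and 22.01 in TAFE3_oil and TAFE4_oil, and 18.1 and 10.4 in TAFE3_tam and TAFE4_tam, a log2 ratio of -1.004 (-1.702 to -0.32) and -1.08 (-1.94 to -0.27). Cryab, a small heat shock protein of oligodendrocytes, had -0.93 (-1.47 to -0.41) and -1.49 (-2.001 to -0.997). Neat1, a nuclear long noncoding RNA, stood at 113 and 98.2 CPM in FE3 and FE4, 247 and 327 in TAFE3_oil and TAFE4_oil, and 119 and 192 in TAFE3_tam and TAFE4_tam, highest in the oil libraries, with -1.05 (-1.31 to -0.798) and -0.77 (-0.96 to -0.57). Lyz2 and the locus RP24-131B6.1 were the other genes named lower.

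On the higher side were Sec14l2, a lipid-binding protein, with log2 ratios of 0.92 (0.13 to 1.76) and 0.95 (0.15 to 1.797), and Mfap2, with 1.26 (0.53 to 2.06) and 0.74 (0.14 to 1.36). Ifit1 had 0.72 (-0.01 to 1.498) and 1.17 (0.61 to 1.76), the ephrin receptor Epha3 0.76 (0.295 to 1.25) and 0.67 (0.16 to 1.19), and the condensin subunit Smc2 0.67 (0.15 to 1.204) and 0.65 (0.19 to 1.13). The 5 genes named higher had the same sign in deep-layer nuclei for 4 and 4 of them in the 2 pairs, and in upper-layer nuclei for 3 and 5. For the 5 named lower it was 5 and 4 in deep-layer nuclei and 4 and 3 in upper-layer nuclei. The summed oligodendrocyte list in members stood at 630.0 and 473 CPM in FE3 and FE4, 985 and 747 in TAFE3_oil and TAFE4_oil, and 534 and 698 in TAFE3_tam and TAFE4_tam, and the astrocyte list 184 and 122 CPM in FE3 and FE4, 247 and 309.9 in TAFE3_oil and TAFE4_oil, and 278 and 169 in TAFE3_tam and TAFE4_tam. These lists, like the mitochondrial genes, which had a median of 0.301 in the APOE3 pair and -1.28 in the APOE4 pair, move with Phgdh and Cryab in part, and their part in those values was not tested. The members' Vwc2l and Pou3f1 had log2 ratios of -0.27 and -0.04 in the APOE3 pair and 0.17 and -0.07 in the APOE4 pair.

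APOE4 was compared with APOE3 in 3 pairs: without tau, with tau and oil, and with tau and tamoxifen. Past 2-fold were 20 genes higher (0.27%) and 183 lower (2.47%) of 7395 in FE4 over FE3 (2.75% in all). In TAFE4_oil over TAFE3_oil 125 were higher (1.6%) and 14 lower (0.179%) of 7829 (1.78%). In TAFE4_tam over TAFE3_tam 48 were higher (0.627%) and 34 lower (0.444%) of 7653 (1.07%). Among members with at most 1% mitochondrial UMIs the balance differed. This limit left 61 members in FE3 and 438 in FE4. It left 127 in TAFE3_oil, 106 in TAFE4_oil, 100 in TAFE3_tam and 421 in TAFE4_tam. FE4 over FE3 then had 192 genes higher and 68 lower. TAFE4_oil over TAFE3_oil had 31 and 13, 1.44% of 3056 genes in all. TAFE4_tam over TAFE3_tam had 182 and 13, 3.13% of 6226. The part of these unequal numbers of members in the balance was not tested. The medians of all genes were -0.13, 0.10 and 0.09. No gene of 6995 counted in all 3 pairs was past 2-fold in one direction in all of them. Mid1, a microtubule-associated ubiquitin ligase, stood at 10.2 and 48.1 CPM in FE3 and FE4, 3.94 and 32.7 in TAFE3_oil and TAFE4_oil, and 15.2 and 21.8 in TAFE3_tam and TAFE4_tam, a log2 ratio of 2.23 (1.44 to 3.13), 3.05 (1.75 to 4.73) and 0.52 (-0.21 to 1.27). Each APOE4 library was above the APOE3 library it is paired with, as the rule for naming Mid1 required, and the third interval included 0. In deep-layer nuclei the Mid1 ratios were 2.29, 2.07 and -0.86, and in upper-layer nuclei 1.99, 1.11 and -0.59. In both gates the third interval included 0. Zyg11b, a ubiquitin ligase adaptor, had 0.497 (-0.01 to 1.02), 0.62 (0.12 to 1.13) and 0.56 (0.11 to 1.02). Mterf1a, Scrn1 and Rab23 were also named higher, with ratios of 0.46 to 0.95. Of the 5 genes named higher, 3, 5 and 1 had the same sign in deep-layer nuclei in the 3 pairs, and 3, 3 and 3 in upper-layer nuclei.

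Lower in APOE4 in all 3 pairs were Abhd3, a lipid hydrolase, at 49.04 and 29.97 CPM in FE3 and FE4, 52.8 and 38.9 in TAFE3_oil and TAFE4_oil, and 45.2 and 32.7 in TAFE3_tam and TAFE4_tam, with log2 ratios of -0.71 (-1.24 to -0.19), -0.44 (-0.94 to 0.07) and -0.46 (-0.96 to 0.03), and Grp, gastrin-releasing peptide, with -0.47 (-0.99 to 0.05), -0.48 (-1.15 to 0.19) and -0.43 (-0.97 to 0.11). Vstm2l, Pmpcb and Lin54 were the others, with ratios between -0.76 and -0.47. None of these ratios reached 2-fold, and of the 15 intervals for these 5 genes 12 included 0. The same sign was found in deep-layer nuclei for 5, 0 and 5 of these 5 genes in the 3 pairs, and in upper-layer nuclei for 3, 1 and 3. In FE4 over FE3 all 13 mitochondrially encoded genes were past 2-fold lower, with a median of -1.59, as were 7 of 48 nuclear oxidative phosphorylation genes. The vascular list, at 483 and 179 CPM in FE3 and FE4, 139 and 517 in TAFE3_oil and TAFE4_oil, and 213 and 317 in TAFE3_tam and TAFE4_tam, had a median of -1.61 in that pair and 2.36 in TAFE4_oil over TAFE3_oil. Without the vascular cluster 121 genes were past 2-fold in the first of these pairs in place of 203, and 71 in the second in place of 139.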

How the data were processed

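Single-nucleus RNA was sequenced from 6 mouse libraries. The authors' deposited matrices hold raw UMI counts per gene and cell barcode, as whole numbers with no normalization in the files. Per the file headers, the matrices were written by Cell Ranger 3.1.0. Per the submitters' processing notes, Seurat and the mm10 genome were also used. The labels' protocol wording mixes 3′ and 5′ chemistry. Totals ran from 39050503 to 49083723 UMIs per library over 33457 features, which limits what low genes can show.

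The members, gates, gene lists and tests were chosen with earlier results of these data known. Counts were summed per library and gate and tested with edgeR 4.0.16 in R 4.3.3 (TMM scaling, filterByExpr, library block), with DESeq2 1.42.0 as an alternative; gene calls needed an adjusted p under 0.05 and a 2-fold change. The fit was tested on simulated data. Conditions had 1 library each, so CPM ratios carry exact binomial 95% intervals with counts under 3 set to 3 and no test, and they cover counting error only. Members were clustered with leidenalg 0.10.2 on nearest neighbours from scikit-learn 1.9.0, over components computed with numpy 2.4.6. Left out were the 9 genes of the rule and listed glial, vascular, blood and sex-linked genes. Genes used to check the labels and mitochondrial and ribosomal protein genes were left out too. Gene positions are those of the GENCODE annotation of GRCm38.

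Named genes were, for the class comparison, those called with the same sign against both gates and in all 6 libraries with at least 20 CPM in the higher gate (the 15 highest and 10 lowest by the smaller change). For tau they were the 10 highest and 10 lowest sharing a sign in both pairs, and for tamoxifen and APOE the 5 highest and 5 lowest sharing a sign in every pair. Rule genes, mitochondrial and ribosomal protein genes, predicted gene models and marker genes of glia, vessels, blood and interneurons were left out of these names. Genes of a described list were those called and up to 4 of the highest level. Some genes that meet these rules are not reported here. Other genes named within clusters were chosen after their values were seen. Doublets were not called with a tool; nuclei with RNA of other cell types were trimmed as an alternative. Other alternatives were other scalings, filters, depth, mitochondrial limits and libraries left out.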

Additional observations from a re-analysis of the deposited data

Results flagged for a closer look

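Each group had 1 library, so no search for a sample far from its group was possible. List medians of log2 CPM ratios that went opposite ways in the APOE3 and APOE4 pairs were looked for among 34 lists per contrast. Opposite signs were found for 10 lists with tau and 10 with tamoxifen, and 8 and 9 of these are left out because a median was under 0.25 in size or fewer than 5 genes were counted, limits set after the medians had been seen. The vascular list had a median of -1.64 in TAFE3_oil over FE3 and 1.88 in TAFE4_oil over FE4. Cluster 8 held 84.3% of the members' Cldn5 UMIs, and with the same mix of clusters and without that cluster the medians were 0.37 and 0.36. The mitochondrially encoded genes had a median of -0.55 in the first pair and 1.43 in the second, with median mitochondrial shares of 2.16% in FE3 and 0.476% in FE4. With tamoxifen these genes had a median of 0.30 in TAFE3_tam over TAFE3_oil and -1.28 in TAFE4_tam over TAFE4_oil. None of these differences between APOE3 and APOE4 pairs was tested.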

How the results depend on the processing

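Genes called against upper-layer nuclei numbered 330, and 619 with no filter on low counts. They numbered 54 after the doublet trim and 180 without the vascular cluster and astrocyte-rich nuclei. Against deep-layer nuclei the 323 became 585 with no filter and 125 after trimming. Trimming left fewer nuclei and genes to test. Leaving out 1 library gave 267 to 342 and 296 to 373. DESeq2 called 293 and 294, and a fit without the library block 289 and 302. Cxcl12 changed sign without the vascular cluster and astrocyte-rich nuclei, to -0.10 and -0.28. No paired analysis was possible because each condition had 1 library; library was a block in the comparison of gates.

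The log2 ratios of the members' shares of excitatory nuclei changed when nuclei were thinned to 1000 UMIs. They were 0.22 for TAFE3_tam over TAFE3_oil, 0.49 for FE4 over FE3 and 0.14 in place of -0.11 for TAFE4_tam over TAFE3_tam. The number of genes past 2-fold depended on the counts available, and so did the number of genes counted. Percentages in parentheses are of the genes counted in each setting. With a lower minimum of counts the number past 2-fold was 579 (5.51%) in TAFE3_oil over FE3 and 1419 (12.5%) in TAFE4_oil over FE4. It was 329 (3.07%) in TAFE3_tam over TAFE3_oil and 425 (3.69%) in TAFE4_tam over TAFE4_oil. It was 585 (5.37%) in FE4 over FE3, 536 (4.90%) in TAFE4_oil over TAFE3_oil and 367 (3.25%) in TAFE4_tam over TAFE3_tam. In the main comparisons the shares were, in that order, 2.02%, 9.46%, 0.702%, 1.52%, 2.75%, 1.78% and 1.07%. Among members with a Vwc2l UMI, where 1180 to 1705 genes were counted, the numbers were, in the same order, 42, 144, 15, 44, 56, 14 and 38. As shares these were 3.56%, 9.36%, 1.03%, 2.78%, 4.01%, 1.04% and 2.23%. With at most 1% mitochondrial UMIs the number was 428 (7.29%) in TAFE4_oil over FE4 and 189 (3.06%) in TAFE4_tam over TAFE4_oil. It was 44 (1.44%) in TAFE4_oil over TAFE3_oil and 195 (3.13%) in TAFE4_tam over TAFE3_tam. After the doublet trim it was 434 (9.81%) in TAFE4_oil over FE4, 21 (1.59%) in TAFE3_tam over TAFE3_oil and 74 (3.47%) in TAFE4_tam over TAFE4_oil. It was 112 (2.16%) in FE4 over FE3 and 42 (3.57%) in TAFE4_oil over TAFE3_oil. Without the vascular cluster it was 121 (1.66%) in FE4 over FE3 and 71 (0.923%) in TAFE4_oil over TAFE3_oil, and with the same mix of clusters 73 (0.943%) in the latter.

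Of the named genes, some changed sign, and the cause was not tested. Among members with a Vwc2l UMI, Fn1 was 0.36 and 0.014 in the tau pairs, Epha3 -0.19 in TAFE3_tam over TAFE3_oil, Scrn1 -0.46 in FE4 over FE3 and -0.49 in TAFE4_oil over TAFE3_oil, and Vstm2l 0.68 in TAFE4_oil over TAFE3_oil. With at most 1% mitochondrial UMIs, Mfap2 was -0.077 and Phgdh 0.22 in TAFE3_tam over TAFE3_oil, Lyz2 0.25 in TAFE4_tam over TAFE4_oil, Scrn1 -0.31 and Rab23 -0.010 in TAFE4_oil over TAFE3_oil, Rab23 -0.28 in FE4 over FE3, and Lin54 0.43 in TAFE4_tam over TAFE3_tam. After the doublet trim, Mfap2 was -0.22 and Cryab 0.48 in TAFE3_tam over TAFE3_oil, Ifit1 -0.95 in TAFE4_tam over TAFE4_oil and Rab23 -0.10 in FE4 over FE3. With the same mix of clusters Lin54 was 0.015 in FE4 over FE3. Of the other gene values under these alternatives, 1153 kept their direction and stayed on their side of the threshold or within their counting interval. A further 64 moved and 14 were no longer called. These totals hide differences between alternatives. Among condition ratios, 29 moved and 44 stayed after the doublet trim, and 16 and 50 among members with a Vwc2l UMI. With at most 1% mitochondrial UMIs these numbers were 14 and 68. With TMM scaling, a minimum of 1000 UMIs or a lower minimum of counts, all 90 stayed.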
